A study of Arabidopsis thaliana with 24 samples.

Results

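The tau and phi glutathione S-transferases of Arabidopsis thaliana were followed here across rosettes of 4 lines with and without ozone. The members are 41 loci taken by locus identifier, the 28 tau genes GSTU1 to GSTU28 and the 13 phi genes GSTF2 to GSTF14, out of 32678 loci in the count tables. The ozone groups were rosettes of C24, Te, CT101 and Col-0 that had received ozone at 350 nl per litre of air for 2 h, and each was set against untreated rosettes of its own line. C24, Te and Col-0 are natural accessions, and the sources used here do not say what CT101 derives from. All plants were 3 weeks old and had grown in a 12 h day, and the interval between exposure and freezing is not given. Each of the 8 groups had 3 biological replicates, and each replicate was RNA from a pool of 10 to 15 whole rosettes, so 24 libraries were compared. The series describes C24 and Te as unlike in their sensitivity to ozone.

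Glutathione S-transferases join the tripeptide glutathione to reactive or foreign molecules, which makes these molecules water-soluble and marks them for transport into the vacuole. The tau and phi classes are the large plant classes of the family, and many of their members are induced by herbicides, pathogens, salicylic acid and oxidative stress. Some members act on the plant's own compounds, such as camalexin, glucosinolates and anthocyanins, and some bind ligands without converting them. Ozone enters leaves through the stomata and breaks down to reactive oxygen species in the cell wall space, and phi transferases are long-known marker transcripts of ozone exposure.

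The libraries held 13633768 to 25789925 counts. The members took 0.843 to 1.80% of all counts in ozone libraries and 0.269 to 0.456% in control libraries. The first principal component of all tested genes carried 58.1% of the variance, with ozone libraries at 1 end and control libraries at the other, and the second ozone library was the lowest of the ozone libraries on it in every line. In C24 this library stood at 41.4 on that component, against 95.1 and 108.7 for the other C24 ozone libraries. All 6 green leaf markers were detected in each group, and their summed level was 24493 to 33280 CPM (counts scaled by library size and TMM factor) under ozone against 36787 to 48104 CPM without ozone in C24. Across the other 3 lines that sum spanned 19961 to 41133 CPM under ozone and 49213 to 62685 CPM without ozone. Root and flower marker lists of 6 genes each summed to at most 0.991 and 2.71 CPM in any library, and the part of these shifts in the results below was not tested. Because whole rosettes were sampled, fewer cells of a type and less RNA per cell cannot be told apart in any level below.

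The 41 genes are spread over the 5 chromosomes, and 29 of them lie in 9 tandem clusters. The longest cluster, GSTU1 to GSTU7, lies on the minus strand of chromosome 2 between bases 12617936 and 12632473 (TAIR10), and GSTU19 to GSTU23 lie on the minus strand of chromosome 1 between 29467437 and 29487906. GSTF4 to GSTF7 lie on the minus strand of chromosome 1 between 658657 and 666452. Coding sequences were 94.5% identical between GSTF2 (AT4G02520) and GSTF3 (AT2G02930), which lie on different chromosomes, and 94.3% identical between the neighbours GSTF6 (AT1G02930) and GSTF7 (AT1G02920). Of the 50-base words in the exons, 10.3% in GSTF6, 10.04% in GSTF7 and 1.67% in GSTU8 recur elsewhere in the genome, and in the other members none do. Counts of GSTF6 and GSTF7 are therefore uncertain where reads fell in shared stretches. These words are exact matches on the Col-0 sequence, so reads placed with mismatches, as between GSTF2 and GSTF3, are not covered. How far such reads entered the counts of either gene was not tested. GSTU7 and GSTF4 overlap a gene on the opposite strand, and because the strand setting of the counting is not given, their values may include reads of that neighbour. GSTF8 overlaps a gene on its own strand, and how reads in the shared stretch were counted is not given.

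Promoter stretches of 250 bases upstream of the RefSeq gene start (TAIR10.1) are shown for 4 members that the results turn on: GSTF7, among the 3 highest per kb under ozone, GSTU20, the highest per kb without ozone and lower under it, GSTF10, called in all 3 comparisons of ozone responses with C24, and GSTU14, which was near 0 in Col-0. Capitals mark TGACG, the core of elements bound by TGA factors, and TTGAC, the core of elements bound by WRKY factors, on either strand (so that CGTCA and GTCAA also count), and the motifs overlap where TTGACG occurs. Positions count back from the gene start.
GSTF7, chr1:659981-660230, minus strand: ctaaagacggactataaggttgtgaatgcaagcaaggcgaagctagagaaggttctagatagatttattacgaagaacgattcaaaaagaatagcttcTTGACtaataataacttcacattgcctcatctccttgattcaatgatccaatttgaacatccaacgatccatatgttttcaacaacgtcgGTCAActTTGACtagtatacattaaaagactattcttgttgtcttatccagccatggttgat
GSTU20, chr1:29485390-29485639, minus strand: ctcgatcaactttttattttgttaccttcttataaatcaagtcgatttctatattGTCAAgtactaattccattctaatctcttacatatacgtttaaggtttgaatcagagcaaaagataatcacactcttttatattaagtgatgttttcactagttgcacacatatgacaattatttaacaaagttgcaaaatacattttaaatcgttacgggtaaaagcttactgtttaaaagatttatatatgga
GSTF10, chr2:13141040-13141289, plus strand: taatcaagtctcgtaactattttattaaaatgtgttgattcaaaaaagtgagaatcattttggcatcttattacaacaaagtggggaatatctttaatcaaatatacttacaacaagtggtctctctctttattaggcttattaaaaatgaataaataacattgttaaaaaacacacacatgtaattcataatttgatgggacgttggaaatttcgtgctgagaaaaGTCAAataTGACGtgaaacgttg
GSTU14, chr1:9427554-9427803, plus strand: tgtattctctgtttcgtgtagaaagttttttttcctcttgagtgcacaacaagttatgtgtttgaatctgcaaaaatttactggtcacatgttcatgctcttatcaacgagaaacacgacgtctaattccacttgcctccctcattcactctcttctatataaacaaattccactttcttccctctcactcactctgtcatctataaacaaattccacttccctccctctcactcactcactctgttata
GSTF7 held 3 TTGAC and no TGACG, GSTU20 held 1 TTGAC at -195, and GSTF10 held 1 TGACG at -15 and 1 TTGAC at -23. GSTU14 held neither motif in this window, and the sequence shown is that of Col-0, the line of the reference genome. TGACG occurred in 14 of the 41 member promoters (34.1%), against 18.6% of 26711 promoters of coding loci. TTGAC occurred in 24 of 41 (58.5%), against 45% of all promoters. These are matches of letters, not known binding sites.

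Ozone was accompanied by higher transcript levels of most tau and phi genes in every line. Of 36 members with enough counts to test, 23 were higher and 8 lower in C24, 23 higher and 5 lower in Te, 24 higher and 10 lower in CT101, and 23 higher and 7 lower in Col-0 (edgeR quasi-likelihood test, Benjamini-Hochberg adjusted p under 0.05, hereafter called). Among all 20554 genes tested, 25.6% were called higher and 22.2% lower in C24, 32% and 30.9% in Te, 32.9% and 32.4% in CT101, and 30% and 26.9% in Col-0. The median log2 fold change of ozone over control among the tested members was 1.76 for C24, 2.77 for Te, 2.60 for CT101 and 2.22 for Col-0, whereas the median of all tested genes lay between -0.03 and -0.01. With members that had 1 to 3 control counts set at the lower end of their counting interval, the Te median was 2.48 and the others did not change. Among the 25 tau genes tested, 16 were higher and 6 lower in C24, 16 and 4 in Te, 17 and 7 in CT101, and 16 and 4 in Col-0. Among the 11 phi genes tested, 7 were higher in each line, and the lower ones numbered 2 for C24, 1 for Te, and 3 each for CT101 and Col-0. The same 21 members rose in all 4 lines, namely GSTU1 to GSTU4, GSTU7 to GSTU13, GSTU19, GSTU24, GSTU25, GSTF2, GSTF3, GSTF5 to GSTF8 and GSTF10, and GSTU5, GSTU6 and GSTU14 rose in 3 lines. GSTU18, GSTU20, GSTU27 and GSTF11 fell in all 4 lines, GSTU17, GSTU26 and GSTF9 in 3, GSTF12 in 2, and GSTU16, GSTU23 and GSTU28 in 1. GSTF4 was not called in any line (although with a replicate block it was in CT101, adjusted p = 0.0173), and no member was called higher in some lines and lower in others. How many of all genes were called alike in all 4 lines was not counted, so these lists do not set the members apart from other genes.

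The second ozone library was the lowest of the 3 ozone libraries for 23 of the 23 members that rose in C24, 11 of 23 in Te, 15 of 24 in CT101 and 19 of 23 in Col-0. The same count over all genes called higher was not made. On the first principal component of all tested genes this library was also the lowest ozone library of every line, so the order is not particular to the members. Without the 4 second ozone libraries, 23 members were called higher and 9 lower in C24, 22 and 7 in Te, 24 and 10 in CT101, and 23 and 7 in Col-0. With library totals alone as the scaling, the median of all genes moved by -0.136 to -0.102 on the log2 scale. Without C24 ozone replicate 3, 5 members were called lower in C24. The p-values measure the spread between replicate pools of rosettes, and where a call is given as lost without several replicates, each was left out in turn.

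**Figure D1:**
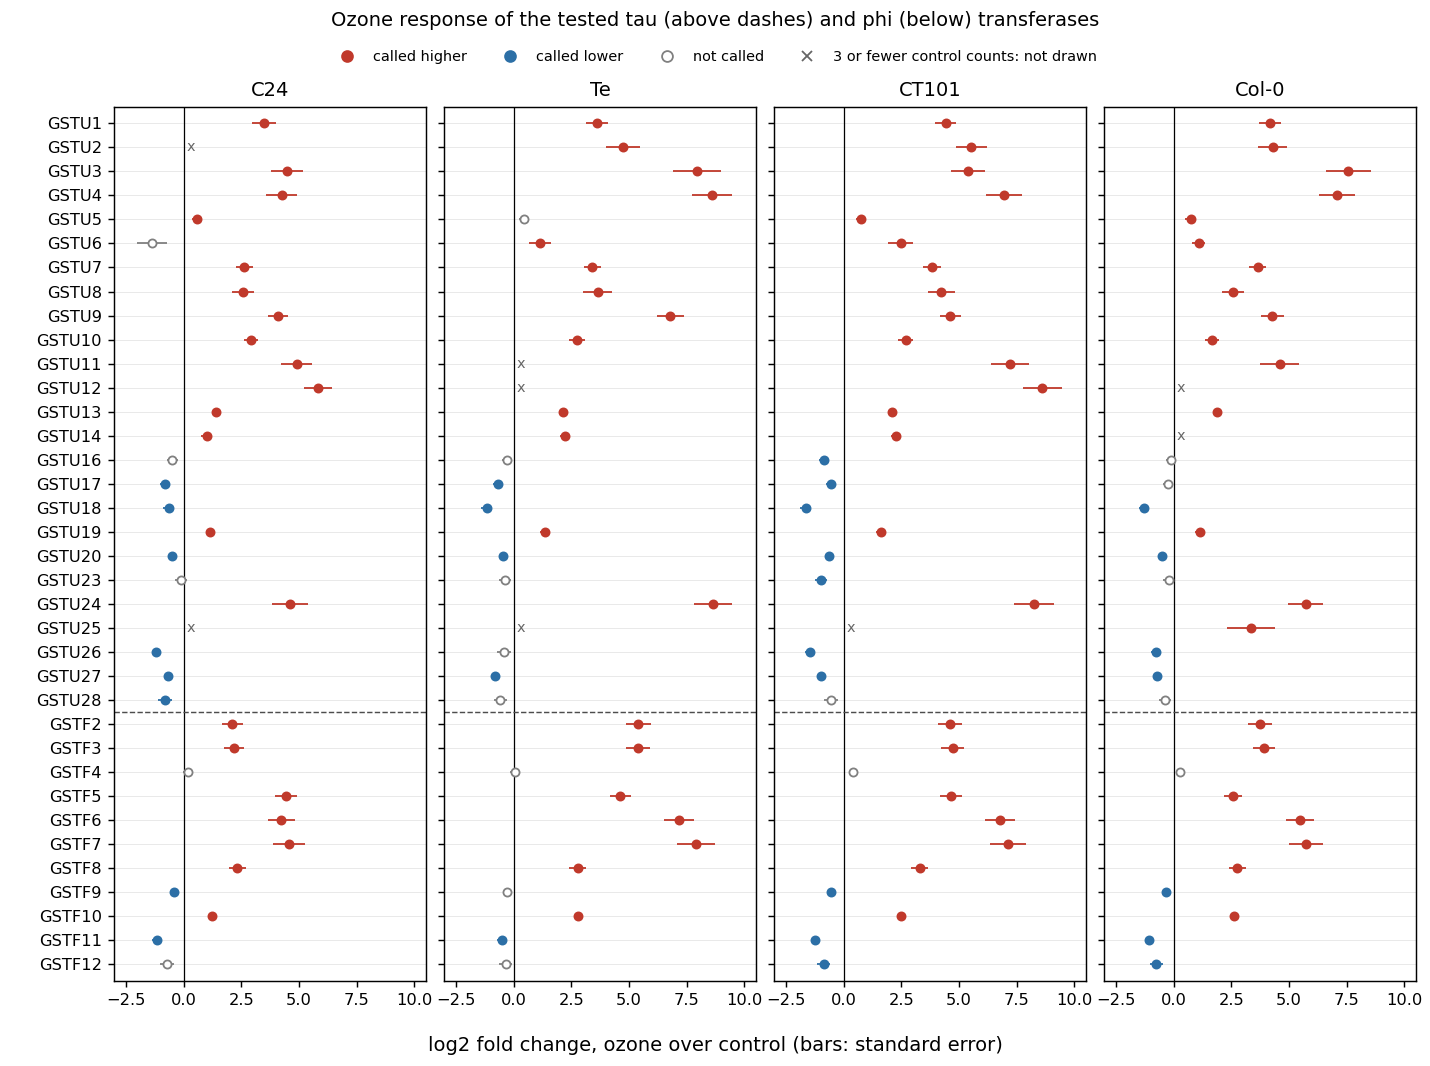
Log2 fold change, ozone over control, of each tested member in C24, Te, CT101 and Col-0; bars are standard errors, filled points are called at adjusted p under 0.05, and x marks stand for members with 3 or fewer control counts, whose fold is not drawn. Tau genes are above the dashed line and phi genes below it; the largest rises, such as GSTU4 in Te at 8.59, are of tau genes, and no fall passes -1.64.

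Summed over each class and divided by exon length, the phi genes outweighed the tau genes under ozone, and the tau genes were level with or above the phi genes without it. The summed phi level was 7890 ± 2839 CPM per kb in ozone rosettes of C24, against 1654 ± 79.7 in its controls (SD, n = 3 each). It was 9883 ± 1487 against 1066 ± 119 CPM per kb in Te, 10168 ± 1730 against 1288 ± 77.1 in CT101, and 8485 ± 2054 against 1030.1 ± 203 in Col-0. The summed tau level differed by less, with means of 2300.3, 2753, 2916 and 2047 CPM per kb in the ozone groups of C24, Te, CT101 and Col-0, against 1701, 1765, 1878 and 1302 in their controls. Phi transcripts made up 76.9 to 80.1% of this total in the 4 ozone groups and 37.6 to 49.3% in the control groups.

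A few genes held most of the total. On the per-kb scale GSTF6, GSTF7 and GSTF2 were the 3 highest members in every ozone group, in that order, and together gave 59.8 to 62.0% of the tau and phi total, against 2.51 to 13.8% in the control groups. This scale uses all annotated exons of a locus, which span 2395 bases for GSTF8 against 1471 for GSTF2. Ranks and shares by the length of a single transcript were not tested. GSTU20 and GSTF9 were the 2 highest in every control group, with GSTU19 next, and GSTU20 and GSTF9 gave 9.21 to 14.8% of the total under ozone against 52.8 to 63.7% without it. Of the tandem clusters, GSTF4 to GSTF7 had the highest sum under ozone, 5431 ± 2287 CPM per kb in C24 and 6269 ± 1088 in Te, against 268 ± 29.7 and 42.7 ± 10.9 in their controls (SD, n = 3 each). The GSTU19 to GSTU23 cluster, the highest without ozone, had 1333 ± 283 CPM per kb in C24 and 1559 ± 52.3 in Te under ozone, against 1245 ± 89.6 and 1248 ± 72.7 in their controls. The GSTU17 and GSTU18 pair was lower under ozone in each line, for example 75.9 ± 15.6 against 128 ± 13.6 CPM per kb in C24.

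**Figure D2:**
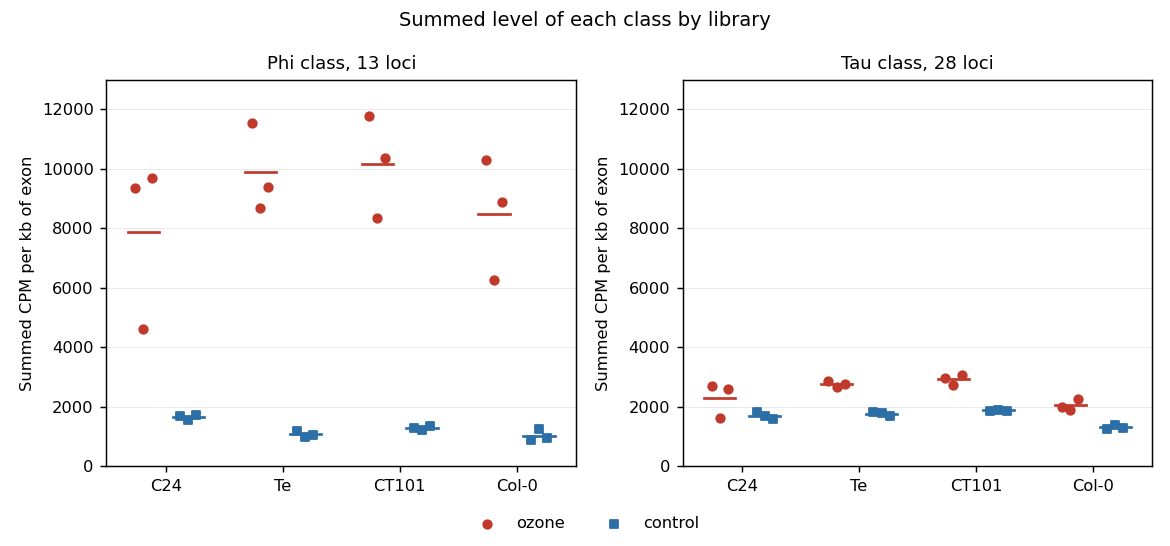
Summed level of the 28 tau genes and of the 13 phi genes, in CPM per kb of exon, in each library of the 4 lines; red circles are ozone libraries, blue squares control libraries, and lines mark the mean of 3. Phi sums reach 7890 to 10168 on average under ozone, against 1030.1 to 1654 in controls, whereas tau means span 2047 to 2916 against 1302 to 1878.

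GSTF6, GSTF7 and GSTF2 had the highest ozone levels of the family per kb. GSTF6 acts in the synthesis of camalexin, the indole phytoalexin of Arabidopsis. Under ozone, GSTF6 stood at 4809.7, 2174 and 5182 CPM in C24, 6061, 4456 and 4844 in Te, 5919.5, 4116 and 5217 in CT101, and 4895, 2887 and 4256 in Col-0. Without ozone, GSTF6 stood at 187, 221 and 233 CPM in C24, 25.5, 44.8 and 35.8 in Te, 13.5, 57.4 and 68.0 in CT101, and 37.5, 179.9 and 50.2 in Col-0. The lowest ozone library of each line was the second, yet every ozone value was far above every control value of its line, and the C24 controls were above those of the other lines. The GSTF6 log2 fold changes were 4.24 ± 0.58 for C24, 7.18 ± 0.66 for Te, 6.78 ± 0.65 for CT101 and 5.49 ± 0.61 for Col-0 (adjusted p at most 8.34e-06). GSTF7, the tandem neighbour of GSTF6, followed it closely. Under ozone, GSTF7 stood at 2911, 1180.5 and 3211 CPM in C24, 2880.1, 1995 and 2196 in Te, 3088, 1956 and 2602 in CT101, and 3070.7, 1781 and 2627 in Col-0. Without ozone, GSTF7 stood at 92.0, 97.8 and 117 CPM in C24, 6.06, 14.3 and 8.90 in Te, 4.49, 19.9 and 30.1 in CT101, and 12.9, 104 and 23.0 in Col-0. No ozone value overlapped with a control, the second control library of Col-0 stood above the other 2 of its line, and the Te controls were among the lowest. The GSTF7 log2 fold changes were 4.57 ± 0.70 for C24, 7.92 ± 0.82 for Te, 7.13 ± 0.79 for CT101 and 5.73 ± 0.74 for Col-0 (adjusted p at most 2.94e-05).

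GSTF2 binds camalexin and other small ligands and is known as a marker of salicylic acid and ethylene treatment. Under ozone, GSTF2 stood at 1388, 809.8 and 1565 CPM in C24, 2338, 1870.2 and 1931 in Te, 2338, 2078 and 2010.2 in CT101, and 2122, 1142 and 1809 in Col-0. Without ozone, GSTF2 stood at 215, 247 and 406 CPM in C24, 41.1, 46.2 and 56.6 in Te, 43.0, 84.4 and 136 in CT101, and 52.7, 249 and 75.3 in Col-0. All ozone values exceeded all control values, and the C24 controls were the highest of the 4 lines taken by mean. The GSTF2 log2 fold changes were 2.12 ± 0.47 for C24, 5.42 ± 0.54 for Te, 4.61 ± 0.52 for CT101 and 3.75 ± 0.50 for Col-0 (adjusted p at most 0.00109). GSTF3, the near-identical partner of GSTF2 on chromosome 2, had log2 fold changes of 2.20 ± 0.43 for C24, 5.40 ± 0.51 for Te, 4.72 ± 0.49 for CT101 and 3.93 ± 0.47 for Col-0 (adjusted p at most 0.000423). Its ozone libraries spanned 90.8 to 269.6 CPM, against 4.25 to 42.4 CPM in controls. Whether part of the GSTF3 counts came from reads of GSTF2 was not tested. GSTF5, between GSTF4 and GSTF6 in the cluster, was a rare transcript that rose in every line, with log2 fold changes of 4.44 ± 0.49 for C24, 4.64 ± 0.45 for Te, 4.65 ± 0.48 for CT101 and 2.58 ± 0.39 for Col-0 (adjusted p at most 1.07e-05). GSTF4, at the other end of the cluster, had log2 fold changes of 0.18 ± 0.20 for C24, 0.05 ± 0.19 for Te, 0.42 ± 0.19 for CT101 and 0.28 ± 0.19 for Col-0 and was not called (adjusted p at least 0.0585). In CT101 it was called higher without CT101 control replicate 3, with RLE factors and with a replicate block (0.43 to 0.60, adjusted p = 0.0172 to 0.049).

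**Figure D3:**
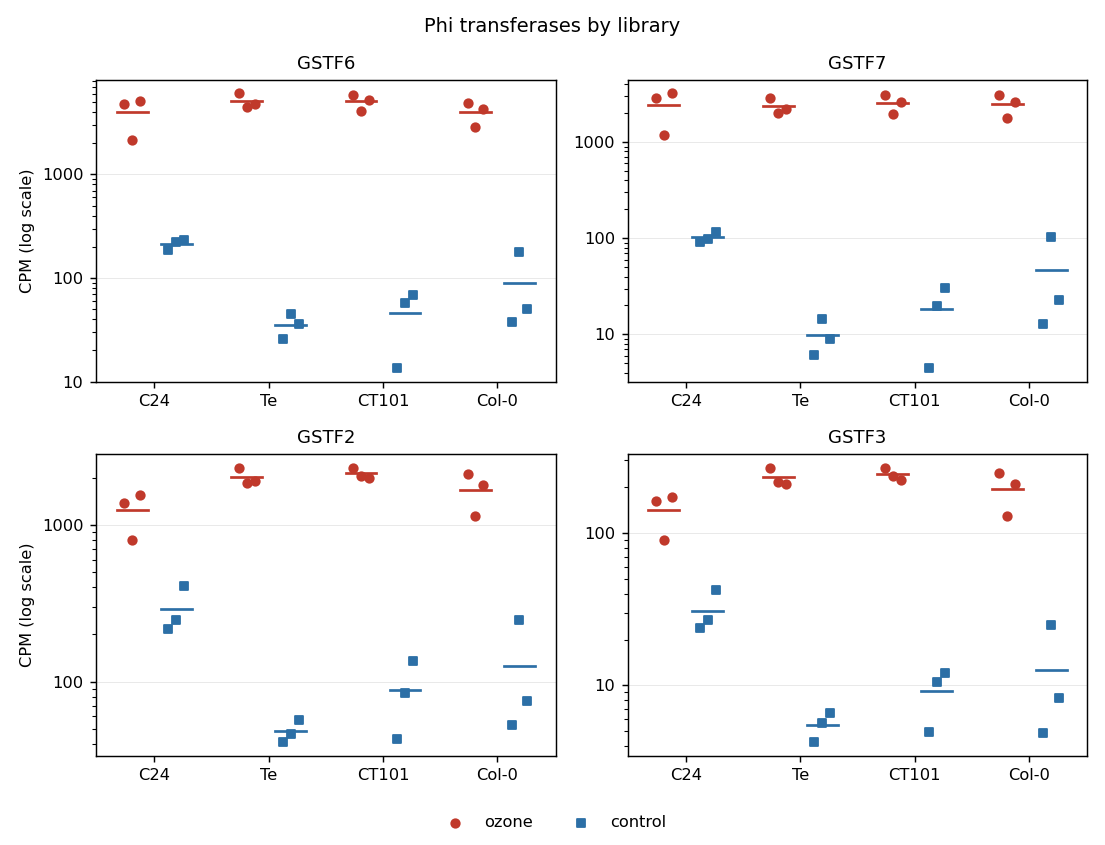
CPM on a log axis of GSTF6, GSTF7, GSTF2 and GSTF3 in each of the 24 libraries; red circles are ozone, blue squares control, and lines mark the mean of 3. Ozone values of GSTF6 lie between 2174 and 6061 CPM and its control values between 13.5 and 233 CPM.

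GSTF8, whose promoter carries an ocs-type element and which is widely used as a reporter of stress, and GSTF10, a dehydration-induced member known to interact with the receptor kinase BAK1, also rose in all lines. Under ozone, GSTF8 stood at 1692, 609 and 1261 CPM in C24, 1561, 865 and 1218 in Te, 2468, 854 and 1742 in CT101, and 1559, 802 and 1272 in Col-0. Without ozone, GSTF8 stood at 260.3, 222 and 226 CPM in C24, 193, 161 and 174 in Te, 182, 162 and 167 in CT101, and 166, 221 and 149 in Col-0. The second ozone library was the lowest in each line but remained above all controls. The GSTF8 log2 fold changes were 2.33 ± 0.36 for C24, 2.79 ± 0.36 for Te, 3.31 ± 0.37 for CT101 and 2.76 ± 0.36 for Col-0 (adjusted p at most 2.94e-05). Under ozone, GSTF10 stood at 380.0, 212 and 326 CPM in C24, 1005, 884 and 968 in Te, 873, 667 and 967 in CT101, and 979, 648 and 769 in Col-0. Without ozone, GSTF10 stood at 136, 134 and 123 CPM in C24, 142, 134 and 137 in Te, 146, 138 and 160.1 in CT101, and 125, 133 and 126 in Col-0. GSTF10 controls were nearly level across the lines, while ozone values of C24 stayed below every ozone value of the other lines. The GSTF10 log2 fold changes were 1.22 ± 0.18 for C24, 2.79 ± 0.18 for Te, 2.50 ± 0.18 for CT101 and 2.64 ± 0.18 for Col-0 (adjusted p at most 1.25e-05).

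In the tau cluster on chromosome 2, GSTU1 to GSTU7, 6 of 7 genes rose in C24 and Te, and all 7 in CT101 and Col-0. Large changes were seen for GSTU3 (AT2G29470) and GSTU4 (AT2G29460). Under ozone, GSTU4 stood at 273, 82.3 and 302 CPM in C24, 341, 249 and 279 in Te, 459, 315 and 354 in CT101, and 362, 206 and 363 in Col-0. Without ozone, GSTU4 stood at 11.1, 14.9 and 8.15 CPM in C24, 0.0977, 1.53 and 0.621 in Te, 0.489, 4.51 and 4.06 in CT101, and 0.349, 4.81 and 1.34 in Col-0. The groups did not overlap, the second ozone library was the lowest in each line, and the C24 controls lay above all controls of the other lines. The GSTU4 log2 fold changes were 4.26 ± 0.67 for C24, 8.59 ± 0.87 for Te, 6.97 ± 0.77 for CT101 and 7.09 ± 0.78 for Col-0 (adjusted p at most 4.37e-05). Under ozone, GSTU3 stood at 89.3, 22.5 and 78.4 CPM in C24, 23.0, 24.2 and 33.2 in Te, 48.0, 66.2 and 51.6 in CT101, and 20.1, 24.2 and 43.2 in Col-0. Without ozone, GSTU3 stood at 2.97, 4.70 and 0.836 CPM in C24, 0.0489, 0.255 and 0 in Te, 0, 3.26 and 0.744 in CT101, and 0, 0.288 and 0.103 in Col-0. GSTU3 was at or near 0 in Te and Col-0 controls, varied widely among C24 and CT101 controls, and overlapped with ozone values in no line. The GSTU3 log2 fold changes were 4.48 ± 0.68 for C24, 7.96 ± 1.04 for Te, 5.38 ± 0.73 for CT101 and 7.57 ± 0.98 for Col-0 (adjusted p at most 2.93e-05).

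GSTU6 (AT2G29440) was a rare transcript whose level depended on the line. Under ozone, GSTU6 stood at 0.145, 0.0665 and 0.0534 CPM in C24, 0.754, 0.553 and 0.493 in Te, 0.509, 0.739 and 0.432 in CT101, and 3.30, 5.85 and 5.25 in Col-0. Without ozone, GSTU6 stood at 0.407, 0.297 and 0.0522 CPM in C24, 0.244, 0.255 and 0.311 in Te, 0.0444, 0.0959 and 0.149 in CT101, and 2.21, 2.75 and 1.81 in Col-0. Col-0 values were above those of all other lines in both treatments, and in C24 the ozone values lay within the range of the controls. The GSTU6 log2 fold changes were 1.15 ± 0.46 for Te, 2.48 ± 0.55 for CT101 and 1.08 ± 0.28 for Col-0 (adjusted p at most 0.035). In C24 it was -1.38 ± 0.65 and not called (adjusted p = 0.0875), but was called lower without C24 control replicate 3 (-1.86, adjusted p = 0.0203). The Te call was lost without Te control replicates 1, 2 and 3 or Te ozone replicates 1 and 2, with library totals alone, in DESeq2 and without the 4 second ozone libraries (0.94 to 1.25, adjusted p = 0.0515 to 0.147). GSTU1 rose by 3.47 ± 0.53 for C24, 3.62 ± 0.47 for Te, 4.42 ± 0.47 for CT101 and 4.18 ± 0.46 for Col-0 on the log2 scale (adjusted p at most 2.69e-05). GSTU7 rose by 2.64 ± 0.37 for C24, 3.42 ± 0.38 for Te, 3.84 ± 0.39 for CT101 and 3.64 ± 0.38 for Col-0 (adjusted p at most 1.28e-05). GSTU5, the most abundant of the cluster per kb without ozone, rose by 0.58 ± 0.23 for C24, 0.75 ± 0.23 for CT101 and 0.74 ± 0.23 for Col-0 and was not called in Te at 0.44 ± 0.23 (adjusted p = 0.0974), where it was called without Te control replicate 2 and in a fit of the compared groups alone (0.46 to 0.68, adjusted p = 0.0225 to 0.0345). Its C24 call was lost without C24 control replicates 1 and 3 or C24 ozone replicates 1 and 3, with library totals alone and in a fit of the compared groups alone (0.45 to 0.60, adjusted p = 0.0784 to 0.172) and its Col-0 call without Col-0 ozone replicate 3 (0.58, adjusted p = 0.0563). GSTU2 had 3 control counts in C24, where the CPM ratio was 26.6 (95% interval 8.78 to 132), and its log2 fold changes were 4.75 ± 0.72 for Te, 5.54 ± 0.68 for CT101 and 4.29 ± 0.64 for Col-0 in the other lines (adjusted p at most 9.95e-05). Intervals of CPM ratios are exact and cover counting error only.

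GSTU11 (AT1G69930) and GSTU12 (AT1G69920), neighbours on chromosome 1, were near 0 in most control libraries. Under ozone, GSTU11 stood at 73.5, 17.9 and 118 CPM in C24, 9.34, 17.5 and 27.3 in Te, 37.4, 62.2 and 101 in CT101, and 8.24, 6.34 and 15.5 in Col-0. Without ozone, GSTU11 stood at 3.32, 2.13 and 1.62 CPM in C24, 0, 0.0510 and 0 in Te, 0, 0.527 and 0.843 in CT101, and 0.175, 0.781 and 0.155 in Col-0. Apart from the second C24 library, all C24 and CT101 ozone values were above those of Te and Col-0, and 2 of the 3 Te controls had no count. The GSTU11 log2 fold changes were 4.90 ± 0.67 for C24, 7.22 ± 0.81 for CT101 and 4.60 ± 0.83 for Col-0 (adjusted p at most 0.000106). Te had 1 control count of GSTU11, and the CPM ratio there was 1064 (95% interval 190.4 to 42071) (adjusted p = 2.07e-06). Under ozone, GSTU12 stood at 62.3, 17.7 and 94.4 CPM in C24, 4.29, 9.63 and 9.44 in Te, 24.2, 23.6 and 53.4 in CT101, and 5.62, 5.45 and 7.52 in Col-0. Without ozone, GSTU12 stood at 1.34, 1.24 and 0.470 CPM in C24, 0, 0.153 and 0 in Te, 0, 0.0959 and 0.149 in CT101, and 0, 0.123 and 0 in Col-0. All C24 and CT101 ozone values of GSTU12 were above those of Te and Col-0, and no ozone value overlapped with a control. The GSTU12 log2 fold changes were 5.84 ± 0.60 for C24 and 8.62 ± 0.83 for CT101 (adjusted p at most 3.47e-07). With 3 control counts each, the CPM ratios of GSTU12 were 149.8 (95% interval 50.9 to 730.1) in Te and 124 (95% interval 42.0 to 603) in Col-0 (adjusted p at most 8.56e-06).

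GSTU24 and GSTU25 are adjacent tau genes whose enzymes conjugate the explosive TNT. Under ozone, GSTU24 stood at 36.1, 4.06 and 24.6 CPM in C24, 308, 269.8 and 263 in Te, 182, 86.3 and 73.6 in CT101, and 73.6, 26.2 and 51.6 in Col-0. Without ozone, GSTU24 stood at 2.095, 0.445 and 0.209 CPM in C24, 0.391, 0.969 and 0.725 in Te, 0.0888, 0.432 and 0.595 in CT101, and 0.582, 1.68 and 0.413 in Col-0. Te ozone values were above those of all other libraries, and the second C24 library was the lowest ozone value but still above its controls. The GSTU24 log2 fold changes were 4.62 ± 0.76 for C24, 8.65 ± 0.84 for Te, 8.27 ± 0.87 for CT101 and 5.73 ± 0.76 for Col-0 (adjusted p at most 7.18e-05). Under ozone, GSTU25 stood at 2.22, 0.266 and 1.71 CPM in C24, 0.464, 0.474 and 0.740 in Te, 8.36, 1.85 and 8.52 in CT101, and 1.13, 0.404 and 0.719 in Col-0. Without ozone, GSTU25 stood at 0.0582, 0.0494 and 0 CPM in C24, 0, 0.0510 and 0.0518 in Te, 0, 0.0480 and 0.0496 in CT101, and 0, 0 and 0.206 in Col-0. GSTU25 stayed rare, with CT101 ozone replicates 1 and 3 above all others, and ozone and control values did not overlap. With 2 control counts in each of C24, Te and CT101, its CPM ratio was 42.6 (95% interval 11.4 to 357) in C24, 16.7 (95% interval 4.19 to 146) in Te and 203 (95% interval 55.6 to 1679.8) in CT101. In Col-0, with 4 control counts, the GSTU25 log2 fold change was 3.36 ± 1.03 (adjusted p = 0.00866), and the adjusted p was at most 0.0123 in any line.

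GSTU8, GSTU9, GSTU10, GSTU13 and GSTU19 also rose in all 4 lines. GSTU19, which conjugates many xenobiotics, ranked next to GSTU20 and GSTF9 per kb without ozone, and its log2 fold changes were 1.17 ± 0.20 for C24, 1.36 ± 0.21 for Te, 1.64 ± 0.21 for CT101 and 1.14 ± 0.20 for Col-0 (adjusted p at most 0.000116). Its means were 725, 1026, 1093 and 702 CPM in ozone rosettes of C24, Te, CT101 and Col-0, against 323, 400.3, 352 and 318 CPM in their controls. GSTU13, which acts in the indole glucosinolate pathway of pathogen defence, had log2 fold changes of 1.40 ± 0.16 for C24, 2.14 ± 0.16 for Te, 2.12 ± 0.16 for CT101 and 1.86 ± 0.16 for Col-0 (adjusted p at most 5.51e-07). GSTU8 changed by 2.57 ± 0.47 for C24, 3.65 ± 0.63 for Te, 4.24 ± 0.58 for CT101 and 2.59 ± 0.49 for Col-0 on the same scale, GSTU9 by 4.11 ± 0.43 for C24, 6.80 ± 0.60 for Te, 4.63 ± 0.47 for CT101 and 4.29 ± 0.51 for Col-0, and GSTU10 by 2.93 ± 0.31 for C24, 2.75 ± 0.34 for Te, 2.70 ± 0.32 for CT101 and 1.67 ± 0.32 for Col-0 (adjusted p at most 0.000189 over the 3 genes). Ozone and control values of these 5 genes did not overlap in any line.

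GSTU14 (AT1G27140), next to GSTU13, was present in 3 lines and nearly absent from the other. Under ozone, GSTU14 stood at 2.66, 2.26 and 2.72 CPM in C24, 12.4, 13.9 and 13.9 in Te, 12.0, 8.19 and 12.7 in CT101, and 0, 0.0404 and 0 in Col-0. Without ozone, GSTU14 stood at 1.51, 0.939 and 1.41 CPM in C24, 2.35, 3.52 and 2.74 in Te, 2.40, 2.11 and 2.23 in CT101, and 0, 0 and 0.0516 in Col-0. Ozone replicate 2 and control replicate 3 of Col-0 held 1 count each, and the other 4 Col-0 libraries held 0, so no fold is given for Col-0. The GSTU14 log2 fold changes were 0.99 ± 0.25 for C24, 2.22 ± 0.21 for Te and 2.28 ± 0.21 for CT101 (adjusted p at most 0.00253). Its promoter, printed above, is from the genome of the line in which the transcript was nearly absent.

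Fewer members fell under ozone, and they include GSTU20 and GSTF9, the most abundant of unexposed rosettes per kb. GSTU20 interacts with the jasmonate-conjugating enzyme FIN219 and has been linked to aliphatic glucosinolate synthesis, and GSTF9 and GSTF11 are co-expressed with that pathway. Under ozone, GSTU20 stood at 854, 757 and 739.6 CPM in C24, 704, 752 and 751 in Te, 708, 828 and 946 in CT101, and 427, 630.1 and 506 in Col-0. Without ozone, GSTU20 stood at 1188, 1069.7 and 1026 CPM in C24, 1117, 998 and 941 in Te, 1262, 1278 and 1303 in CT101, and 727, 727 and 745 in Col-0. In each line all 3 ozone values lay below all control values. The GSTU20 log2 fold changes were -0.48 ± 0.13 for C24, -0.47 ± 0.13 for Te, -0.63 ± 0.13 for CT101 and -0.49 ± 0.13 for Col-0 (adjusted p at most 0.00459). Under ozone, GSTF9 stood at 899, 865 and 755 CPM in C24, 785, 768 and 715 in Te, 703, 781 and 781 in CT101, and 534, 634 and 559 in Col-0. Without ozone, GSTF9 stood at 1235, 1031 and 1061 CPM in C24, 1076, 781 and 870.4 in Te, 1202, 1004 and 1118 in CT101, and 719, 699.8 and 731 in Col-0. The groups did not overlap in C24, CT101 and Col-0, while in Te the highest ozone value passed the lowest control value. GSTF9 fell by 0.40, 0.55 and 0.32 on the log2 scale in C24, CT101 and Col-0 (adjusted p = 0.0107, 0.000478 and 0.033), and was not called in Te at -0.27 ± 0.12 (adjusted p = 0.0643), where it was called lower without Te control replicate 2, with library totals alone, with a replicate block, in DESeq2 and without the 4 second ozone libraries (-0.40 to -0.26, adjusted p = 0.00641 to 0.0489). The GSTF9 call in C24 was lost without C24 control replicate 1 or C24 ozone replicate 3 and in a fit of the compared groups alone (-0.40 to -0.30, adjusted p = 0.0735 to 0.0855), and the Col-0 call without Col-0 control replicates 1, 2 and 3 or Col-0 ozone replicates 1 and 3, without a low-count filter and in a fit of the compared groups alone (-0.33 to -0.27, adjusted p = 0.0624 to 0.138).

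GSTF11, a phi gene of the glucosinolate-associated set, fell in all 4 lines. Under ozone, GSTF11 stood at 13.2, 17.2 and 11.6 CPM in C24, 22.9, 20.9 and 19.6 in Te, 12.8, 17.5 and 17.97 in CT101, and 7.40, 13.2 and 10.6 in Col-0. Without ozone, GSTF11 stood at 34.5, 36.8 and 23.0 CPM in C24, 34.7, 30.4 and 25.8 in Te, 39.7, 39.4 and 33.4 in CT101, and 20.6, 23.4 and 20.6 in Col-0. Ozone values were below all controls in each line, with the narrowest gap in Te. The GSTF11 log2 fold changes were -1.17 ± 0.20 for C24, -0.52 ± 0.20 for Te, -1.22 ± 0.20 for CT101 and -1.05 ± 0.20 for Col-0 (adjusted p at most 0.0264). Its Te call was lost without Te control replicates 1 and 2 or Te ozone replicates 2 and 3 (-0.52 to -0.40, adjusted p = 0.0559 to 0.126). GSTF12, known as TRANSPARENT TESTA 19, is needed to move anthocyanins and proanthocyanidins to the vacuole. Under ozone, GSTF12 stood at 7.92, 8.71 and 8.81 CPM in C24, 13.9, 21.8 and 18.3 in Te, 7.18, 18.03 and 11.9 in CT101, and 8.19, 18.3 and 16.5 in Col-0. Without ozone, GSTF12 stood at 12.9, 14.7 and 13.8 CPM in C24, 20.9, 26.5 and 21.0 in Te, 17.3, 30.3 and 19.7 in CT101, and 22.1, 29.2 and 21.1 in Col-0. Ozone and control values overlapped in Te and CT101. GSTF12 fell by 0.87 and 0.75 on the log2 scale in CT101 and Col-0 (adjusted p = 0.0134 and 0.0316). It was -0.71 ± 0.30 in C24 and -0.35 ± 0.29 in Te, neither called (adjusted p = 0.059 and 0.309), but the C24 value was called with library totals alone, with a replicate block, in a fit of the compared groups alone, in DESeq2 and without the 4 second ozone libraries (-0.81 to -0.69, adjusted p = 0.00502 to 0.0436). Its CT101 call was lost without CT101 control replicate 2 or CT101 ozone replicate 1 and in a fit of the compared groups alone (-0.86 to -0.60, adjusted p = 0.0546 to 0.094), and the Col-0 call without Col-0 control replicate 2 or Col-0 ozone replicate 1 and in a fit of the compared groups alone (-0.75 to -0.47, adjusted p = 0.0591 to 0.166).

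The adjacent genes GSTU17 and GSTU18 on chromosome 1 were lower under ozone, and GSTU17 is a regulator of light and abscisic acid responses. Under ozone, GSTU17 stood at 58.3, 69.6 and 46.0 CPM in C24, 105, 116 and 125 in Te, 105, 64.9 and 108 in CT101, and 83.3, 108 and 103 in Col-0. Without ozone, GSTU17 stood at 102, 116 and 88.1 CPM in C24, 172, 210.0 and 173 in Te, 125, 154 and 124 in CT101, and 84.2, 154 and 109 in Col-0. Values did not overlap in C24, Te and CT101, and overlapped in Col-0. The GSTU17 log2 fold changes were -0.82 ± 0.21 for C24, -0.68 ± 0.21 for Te and -0.54 ± 0.21 for CT101 (adjusted p at most 0.0288). In Col-0 it was -0.24 ± 0.21 (adjusted p = 0.337), and the CT101 call was lost without CT101 control replicate 2 or CT101 ozone replicate 2, in a fit of the compared groups alone and without the 4 second ozone libraries (-0.52 to -0.34, adjusted p = 0.0623 to 0.169). Under ozone, GSTU18 stood at 28.3, 30.8 and 19.97 CPM in C24, 34.3, 34.8 and 27.1 in Te, 15.8, 16.6 and 12.8 in CT101, and 17.4, 27.2 and 19.5 in Col-0. Without ozone, GSTU18 stood at 52.7, 32.8 and 38.2 CPM in C24, 82.8, 72.6 and 60.1 in Te, 64.5, 35.8 and 40.6 in CT101, and 63.7, 48.8 and 44.0 in Col-0. All ozone values were below all controls of their line, with the narrowest gap in C24. The GSTU18 log2 fold changes were -0.64 ± 0.23 for C24, -1.16 ± 0.23 for Te, -1.64 ± 0.24 for CT101 and -1.28 ± 0.24 for Col-0 (adjusted p at most 0.0286). For GSTU18 the C24 call was lost without C24 control replicate 1 or C24 ozone replicates 1 and 3 and in a fit of the compared groups alone (-0.70 to -0.41, adjusted p = 0.0536 to 0.203).

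GSTU26 and GSTU27 fell as well and their levels differed between lines. Under ozone, GSTU26 stood at 7.20, 8.71 and 6.41 CPM in C24, 1.16, 0.789 and 1.30 in Te, 6.83, 6.34 and 7.23 in CT101, and 2.47, 2.46 and 3.43 in Col-0. Without ozone, GSTU26 stood at 19.4, 18.7 and 12.6 CPM in C24, 1.61, 1.27 and 1.501 in Te, 16.0, 24.7 and 15.5 in CT101, and 3.78, 5.55 and 4.69 in Col-0. Te stood far below C24 and CT101 in both treatments, and only in Te did ozone and control values overlap. The GSTU26 log2 fold changes were -1.19 ± 0.20 for C24, -1.46 ± 0.20 for CT101 and -0.76 ± 0.22 for Col-0 (adjusted p at most 0.00622). In Te it was -0.41 ± 0.29 and not called (adjusted p = 0.234). Under ozone, GSTU27 stood at 61.2, 84.6 and 52.8 CPM in C24, 37.4, 35.3 and 29.7 in Te, 29.3, 35.8 and 24.3 in CT101, and 17.6, 23.3 and 15.9 in Col-0. Without ozone, GSTU27 stood at 105, 99.1 and 116 CPM in C24, 59.7, 56.8 and 62.2 in Te, 55.8, 57.2 and 63.9 in CT101, and 27.6, 33.1 and 32.3 in Col-0. C24 had the highest values and Col-0 the lowest in both treatments, and ozone values lay below all controls of the same line. The GSTU27 log2 fold changes were -0.69 ± 0.16 for C24, -0.80 ± 0.17 for Te, -0.98 ± 0.17 for CT101 and -0.71 ± 0.17 for Col-0 (adjusted p at most 0.00187).

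GSTU16 fell in CT101 by 0.84 on the log2 scale (adjusted p = 0.00272) and ranged from -0.48 to -0.12 in the other lines, where it was not called. In C24 it was called lower without C24 control replicate 3 or C24 ozone replicate 2, with a replicate block and without the 4 second ozone libraries (-0.66 to -0.49, adjusted p = 0.00762 to 0.0433), and in Te without the 4 second ozone libraries (-0.52, adjusted p = 0.0239). GSTU23, at most 3.57 CPM in any library, fell in CT101 by 0.99 (adjusted p = 0.002) and ranged from -0.36 to -0.11 in the others. GSTU28, at most 1.75 CPM, fell in C24 by 0.82 (adjusted p = 0.0356), a call lost without C24 control replicates 2 and 3 or C24 ozone replicates 2 and 3, without a low-count filter, in a fit of the compared groups alone, in DESeq2 and without the 4 second ozone libraries (-0.82 to -0.66, adjusted p = 0.0579 to 0.136). It was not called in the other lines, but was lower in CT101 without CT101 control replicate 3 or CT101 ozone replicate 2 and without the 4 second ozone libraries (-0.83 to -0.75, adjusted p = 0.0327 to 0.0405) and in Te with library totals alone (-0.70, adjusted p = 0.0497). The other 5 members had too few counts to test. GSTF13 had 0 counts in all 24 libraries. GSTU15 reached at most 0.214 CPM, GSTU21 at most 0.464, GSTU22 at most 0.803 and GSTF14 at most 0.247 CPM in any library.

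Adjacent genes moved in opposite directions at 3 places. How often adjacent genes do so elsewhere in the genome was not counted. GSTU19 rose and GSTU20 fell in all 4 lines, although their coding sequences are 76.2% identical. GSTF10 rose in all 4 lines and its neighbour GSTF9, 77.6% identical in coding sequence, fell in 3. GSTU24 and GSTU25 rose in all 4 lines and GSTU26, 71.8% identical to GSTU24, fell in 3.

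**Figure D4:**
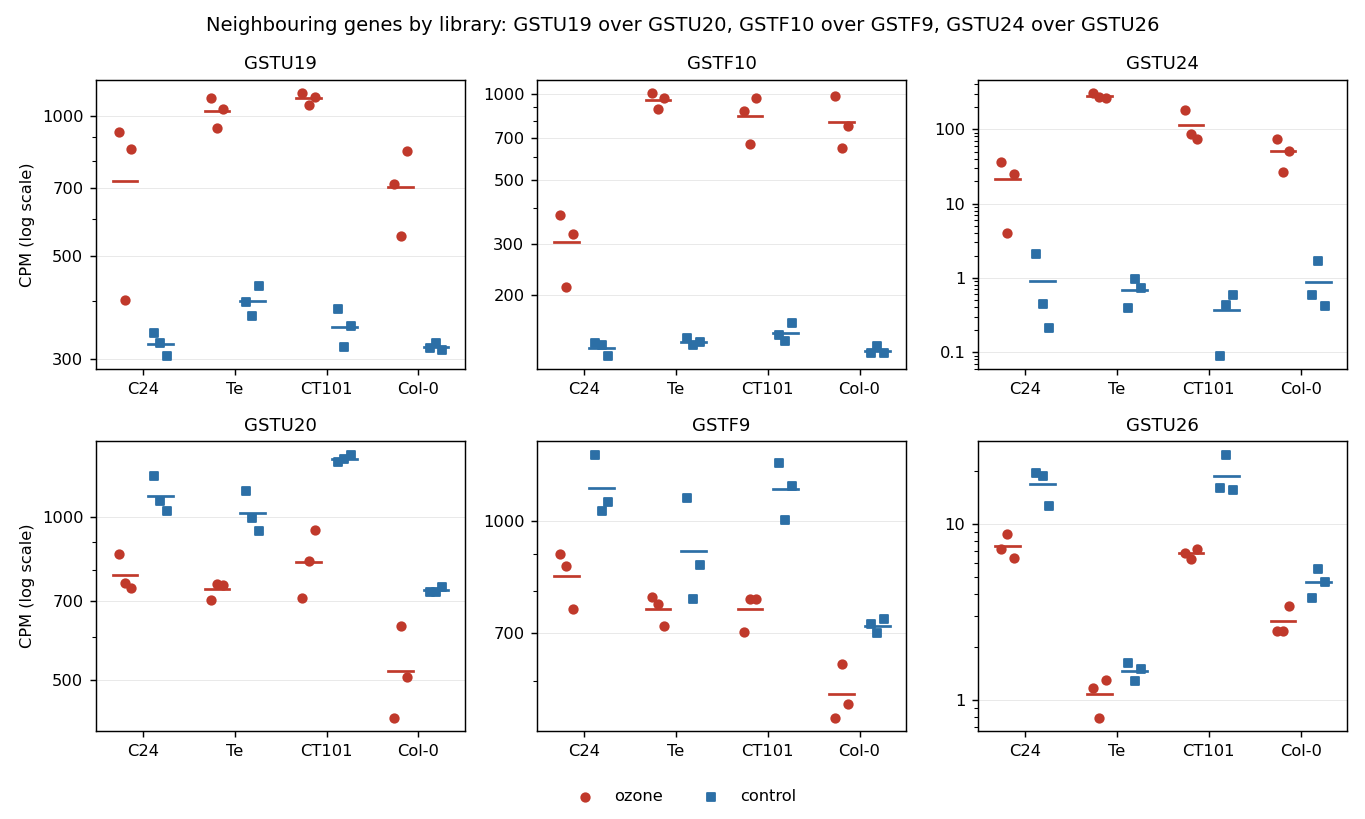
CPM on a log axis of 3 pairs of genes, each from the same tandem cluster, GSTU19 and GSTU20, GSTF10 and GSTF9, and GSTU24 and GSTU26, in each library; red circles are ozone, blue squares control, lines the mean of 3. GSTU25 lies between GSTU24 and GSTU26. The first gene of each pair is higher under ozone in all 4 lines; the second is lower under ozone in C24, CT101 and Col-0.

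Some members differed in level between unexposed rosettes of the lines. C24 controls held the most transcript of several members that ozone raises. In Te minus C24, 4 members were higher and 13 lower (edgeR, adjusted p under 0.05). These were 11.1% and 36.1% of the members tested, against 12.4% and 17.7% of all genes tested. In CT101 minus C24, 1 was higher and 7 lower (2.78% and 19.4%, all genes 6.18% and 10.4%). In Col-0 minus C24, 6 were higher and 12 lower (16.7% and 33.3%, all genes 11.7% and 14.7%). CT101 minus Te gave 1 higher and 0 lower member (2.78% and 0%, all genes 2.9% and 2.33%). Te minus Col-0 gave 4 higher and 5 lower (11.1% and 13.9%, all genes 7.07% and 8.75%). CT101 minus Col-0 gave 6 higher and 3 lower (16.7% and 8.33%, all genes 7.6% and 8.06%). The members' share was near or below that of all genes for higher calls in Te and CT101 minus C24. It was also so for both directions in CT101 minus Te and for lower calls in CT101 minus Col-0. The 0 lower members of CT101 minus Te stand beside 9 members at an unadjusted p under 0.05 in either direction and 4 called members in DESeq2. The members' median log2 difference was -0.06, -0.14 and -0.29 for Te, CT101 and Col-0 minus C24, where the median of all genes was -0.05, -0.03 and -0.04. The 6 comparisons share control libraries, since each line enters 3 of them. With library totals alone as the scaling, the median of all genes moved by -0.129 on the log2 scale in Te minus C24, and 24.8% of all called genes were higher there against 41.2% with TMM. In CT101 minus C24 that share was 25.6% against 37.3%, and in Col-0 minus C24 33.5% against 44.4%.

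The phi genes with the highest ozone levels were lower in Te than in C24 without ozone. From the control values given above, the log2 difference Te minus C24 was -2.60 ± 0.54 (adjusted p = 0.00105) for GSTF6, -3.39 ± 0.67 (adjusted p = 0.000665) for GSTF7 and -2.59 ± 0.48 (adjusted p = 0.000333) for GSTF2. For GSTU4 it was -3.93 ± 0.81 (adjusted p = 0.000914) and for GSTU9 -3.63 ± 0.70 (adjusted p = 0.00052). In CT101 minus C24 it was -2.21 ± 0.53 (adjusted p = 0.00629) for GSTF6 and -2.49 ± 0.64 (adjusted p = 0.00995) for GSTF7. These 7 differences kept their call in every alternative tried. GSTU3 had log2 differences of -4.73 ± 1.25 (adjusted p = 0.00683) in Te minus C24 and -4.22 ± 1.16 (adjusted p = 0.00996) in Col-0 minus C24, and the Col-0 call was lost without C24 control replicate 2 (-3.61, adjusted p = 0.0577). GSTU11, with 1 count over the 3 Te controls, was higher in C24 than in Te controls by a CPM ratio of 138 (95% interval 24.3 to 5475), and GSTU12, with 3 counts, by 19.95 (95% interval 6.49 to 99.6) in C24 over Te and 20.5 (95% interval 6.66 to 102) in C24 over Col-0. The GSTU12 call in Te minus C24 was lost without C24 control replicates 1 and 2 or Te control replicates 1 and 3 (adjusted p = 0.0553 to 0.074), and that in Col-0 minus C24 without C24 control replicates 1 and 2 or Col-0 control replicates 1 and 3 (adjusted p = 0.0595 to 0.0732). In CT101 minus C24 the GSTU12 call was lost without a low-count filter (-3.55, adjusted p = 0.0792). Leaving out C24 control replicates 1 and 2 or CT101 control replicates 1, 2 and 3 also ended it (-4.26 to -2.98, adjusted p = 0.0704 to 0.167).

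Other members differed by line in ways of their own. GSTU26 was low in Te, with a log2 difference of -3.52 ± 0.23 (adjusted p = 3.21e-10) for Te minus C24, -1.68 ± 0.24 (adjusted p = 2.75e-05) for Te minus Col-0 and 3.67 ± 0.23 (adjusted p = 5.02e-10) for CT101 minus Te, the sole member called in the CT101 comparison with Te. GSTU6 was high in Col-0, with 3.16 ± 0.39 (adjusted p = 3.16e-06) for Col-0 minus C24, -3.04 ± 0.38 (adjusted p = 4.6e-06) for Te minus Col-0 and -4.49 ± 0.45 (adjusted p = 1.79e-07) for CT101 minus Col-0. GSTU27 was highest in C24 and lowest in Col-0, with -1.78 ± 0.17 (adjusted p = 7.29e-08) for Col-0 minus C24, -0.84 ± 0.16 (adjusted p = 0.000515) for Te minus C24 and 0.94 ± 0.17 (adjusted p = 0.000304) for Te minus Col-0. GSTU14 was at 1 count over the Col-0 controls, and the CPM ratio was 174 (95% interval 30.9 to 6925) for Te over Col-0, 137 (95% interval 24.2 to 5451) for CT101 over Col-0 and 77.5 (95% interval 13.5 to 3104) for C24 over Col-0. GSTU20 and GSTF9, the most abundant members of control rosettes, had log2 differences of -0.58 ± 0.13 (adjusted p = 0.00201) and -0.63 ± 0.12 (adjusted p = 0.000573) in Col-0 minus C24, and of 0.81 ± 0.13 (adjusted p = 0.000116) and 0.63 ± 0.12 (adjusted p = 0.000857) in CT101 minus Col-0. The order of these 2 genes in controls by mean was CT101, C24, Te and Col-0 for GSTU20 and C24, CT101, Te and Col-0 for GSTF9, and no pair among C24, CT101 and Te differed beyond the threshold, except that GSTF9 in Te minus C24 did with a replicate block (-0.29, adjusted p = 0.0453). The main calls given so far in this paragraph were kept in each alternative tried. GSTU20 was also called higher in Te minus Col-0. That call was lost without Te control replicate 1 or Col-0 control replicates 1, 2 and 3 (0.39 to 0.47, adjusted p = 0.051 to 0.0912). Reads of all lines were counted on the Col-0 sequence, and the effect of sequence differences between lines on the counts was not tested.

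Further control calls were lost when single libraries were left out. In Col-0 minus C24 the count of called members was 9 without C24 control replicate 2 or Col-0 control replicate 1, against 18, and 10 when Col-0 control replicate 3 was left out. In CT101 minus C24 it was 3 without CT101 control replicate 1, against 8, and in CT101 minus Te it was 4 without that library, against 1. In Te minus Col-0 it was 4 without Te control replicate 1 and 5 without Te control replicate 3 or Col-0 control replicate 2, against 9. A fit with the replicate number as a block added control calls, in Te minus C24 GSTF9 and GSTF12 (0.72, adjusted p = 0.00434), in CT101 minus C24 GSTU10 (-0.96, adjusted p = 0.0141), GSTF4 (0.51, adjusted p = 0.0287) and GSTF12 (0.66, adjusted p = 0.0122), in Col-0 minus C24 GSTU11 (adjusted p = 0.0422) and in CT101 minus Te GSTU18 (-0.62, adjusted p = 0.0432). In Te minus Col-0 it added GSTU8 (-2.13, adjusted p = 0.0412), GSTU16 (0.52, adjusted p = 0.0145), GSTF9 (0.34, adjusted p = 0.0346) and GSTF11 (0.49, adjusted p = 0.0431) and ended the call of GSTF2 (-1.40, adjusted p = 0.05001).

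**Figure D5:**
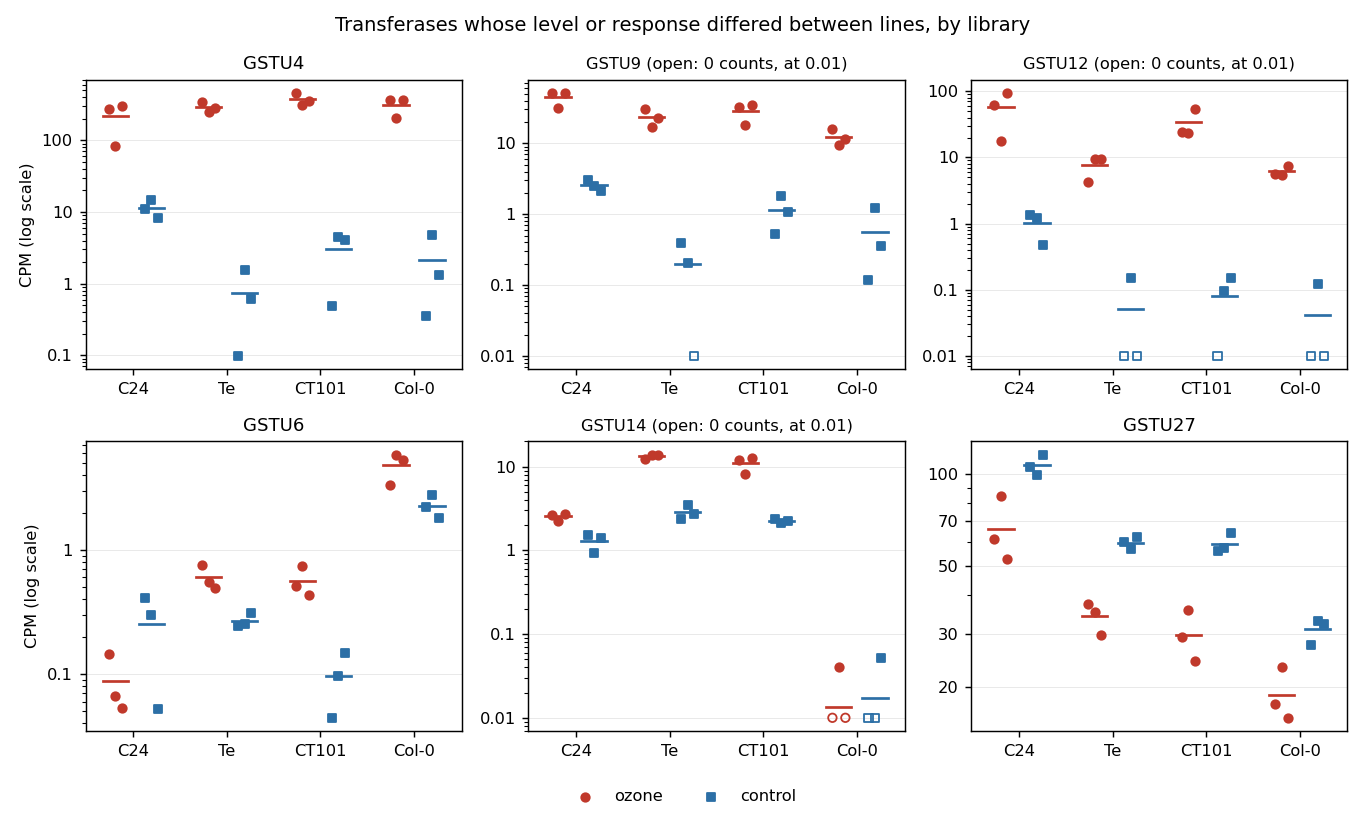
CPM on a log axis of GSTU4, GSTU9, GSTU12, GSTU6, GSTU14 and GSTU27 in each library of the 4 lines; red circles are ozone, blue squares control, lines the mean of 3, and open symbols at 0.01 stand for 0 counts. GSTU14 is at 0 in 4 of the 6 Col-0 libraries, and GSTU6 is highest in Col-0.

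The ozone responses were then compared between lines as the difference of log2 fold changes. All members called in these comparisons had larger fold changes outside C24 than in C24. In Te minus C24, 11 members were called higher (7.77% of all genes), in CT101 minus C24, 7 (7.09%), and in Col-0 minus C24, 1 (2.86%), all by edgeR at adjusted p under 0.05, and none was called lower (1.81%, 2.61% and 0.506% of all genes). Of all genes called in these comparisons, 81.1%, 73.1% and 85% were likewise higher in Te, CT101 and Col-0 than in C24. With a replicate block, CT101 minus C24 also had GSTU4 (2.72, adjusted p = 0.0471) and GSTU24 (3.67, adjusted p = 0.0493) called higher and GSTU18 (-0.98, adjusted p = 0.0175) called lower. The members' median response difference was 0.55 in Te minus C24, 0.81 in CT101 minus C24 and 0.27 in Col-0 minus C24, against 0.0031, 0.000822 and 0.0142 over all genes. The 3 comparisons share the C24 libraries. Among the other lines no member was called in CT101 minus Te (0.321% of all genes in either direction), Te minus Col-0 (0.954%) or CT101 minus Col-0 (1.6%). At an unadjusted p under 0.05 these had 3, 9 and 7 members, and DESeq2 called 0 in each. In CT101 minus Col-0 the share of all called genes that were higher was 61.4% with library totals alone and 50.2% with TMM. The count for Te minus C24 was 6 without C24 control replicate 1 or Te control replicates 1 or 3, 7 without C24 ozone replicate 2 or Te ozone replicate 3, and 6 without the 4 second ozone libraries. The count for CT101 minus C24 was 4 without C24 control replicate 3, C24 ozone replicate 2, CT101 control replicate 1 or CT101 ozone replicate 3. For Col-0 minus C24 it was 2 without C24 control replicates 2 or 3 or C24 ozone replicate 2, and 6 when Col-0 control replicate 2 was left out.

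GSTF10 was called against C24 in all 3 lines and in every alternative, with a response difference of 1.57 ± 0.25 (adjusted p = 0.000463) in Te, 1.27 ± 0.25 (adjusted p = 0.00422) in CT101 and 1.42 ± 0.25 (adjusted p = 0.00221) in Col-0. Its control levels were nearly level across the lines, and the C24 ozone libraries, at 212 to 380.0 CPM, stood below the other ozone libraries, at 648 to 1005 CPM. GSTF3 was called in Te at 3.20 ± 0.62 (adjusted p = 0.00263) and in CT101 at 2.53 ± 0.61 (adjusted p = 0.0152), and GSTU4 and GSTF2 in Te at 4.33 ± 1.00 (adjusted p = 0.00899) and 3.30 ± 0.65 (adjusted p = 0.00303), each in every alternative. For GSTF2, GSTF3 and GSTU4 the lines also differed without ozone, C24 being the highest. GSTU6 was called in CT101 at 3.86 ± 0.85 (adjusted p = 0.00963), in every alternative except the fit of the compared groups alone, where its counts were too low to be tested. The other 11 differences did not hold in every alternative, and the libraries and settings that ended each are given among the results for a closer look.

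A list of 29 other genes of glutathione use, all tested, was set beside the members: 12 of other transferase classes, 4 of glutathione supply and reduction, 9 of conjugate transport and breakdown, and 4 regulators. Of these, 11 were higher and 3 lower in C24, 16 and 8 in Te, 14 and 8 in CT101, and 15 and 4 in Col-0, with median log2 fold changes of 0.01, 0.48, 0.29 and 0.46. The share called higher was 37.9% for C24, 55.2% for Te, 48.3% for CT101 and 51.7% for Col-0, against 25.6%, 32%, 32.9% and 30% of all genes. The share called lower was 10.3% for C24, 27.6% for Te, 27.6% for CT101 and 13.8% for Col-0, against 22.2%, 30.9%, 32.4% and 26.9%. In Te and CT101 the share called lower was near that of all genes. The C24 count of lower genes was 5 without C24 control replicate 2 and 5 with a replicate block, which added GSTL3 and DHAR3, and the Te count was 5 without Te control replicate 1 and 4 without Te ozone replicate 1. The lambda transferase GSTL1, of a class with thiol transferase activity, rose in all lines. Under ozone, GSTL1 stood at 175, 79.9 and 317 CPM in C24, 90.2, 94.5 and 153 in Te, 186, 248 and 293 in CT101, and 53.6, 49.1 and 96.4 in Col-0. Without ozone, GSTL1 stood at 5.88, 9.39 and 7.05 CPM in C24, 2.88, 2.80 and 2.74 in Te, 2.67, 3.26 and 6.54 in CT101, and 1.51, 4.44 and 2.37 in Col-0. Ozone values exceeded all controls of their line. The GSTL1 log2 fold changes were 4.67 ± 0.48 for C24, 5.32 ± 0.51 for Te, 5.87 ± 0.51 for CT101 and 4.54 ± 0.49 for Col-0 (adjusted p at most 3.21e-07). PCS1, phytochelatin synthase, which also takes part in the breakdown of glutathione conjugates, rose in each line. Under ozone, PCS1 stood at 669.6, 341 and 705 CPM in C24, 616, 582 and 844 in Te, 494, 366 and 670.4 in CT101, and 509.7, 648 and 653 in Col-0. Without ozone, PCS1 stood at 83.5, 72.4 and 78.5 CPM in C24, 55.5, 51.8 and 62.9 in Te, 42.2, 51.1 and 62.9 in CT101, and 52.4, 61.7 and 53.1 in Col-0. The groups did not overlap. The PCS1 log2 fold changes were 2.87 ± 0.25 for C24, 3.58 ± 0.26 for Te, 3.29 ± 0.26 for CT101 and 3.44 ± 0.26 for Col-0 (adjusted p at most 4.09e-08).

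GGT2, a gamma-glutamyl transferase of the cell wall space, was rare. Under ozone, GGT2 stood at 0.628, 0.199 and 0.801 CPM in C24, 0.754, 1.26 and 0.987 in Te, 0.764, 1.35 and 1.05 in CT101, and 0.740, 0.323 and 0.940 in Col-0. Without ozone, GGT2 stood at 0.233, 0.247 and 0.0522 CPM in C24, 0, 0.0510 and 0 in Te, 0.0444, 0.0959 and 0 in CT101, and 0, 0.123 and 0.0516 in Col-0. Values overlapped in C24. The CPM ratio was 58.0 (95% interval 9.89 to 2339.5) in Te, with 1 control count, and 22.0 (95% interval 7.13 to 109.8) in CT101, with 3, and the log2 fold change was 1.63 ± 0.63 for C24 and 3.20 ± 0.72 for Col-0 (adjusted p = 0.0395 and 0.000797). In C24 the GGT2 call was lost without C24 control replicates 1 and 3 or C24 ozone replicates 1 and 3, with library totals alone and without a low-count filter (1.19 to 1.85, adjusted p = 0.0501 to 0.179). GGT1, a related enzyme, rose by 2.50 ± 0.28 for C24, 3.04 ± 0.28 for Te, 3.74 ± 0.29 for CT101 and 3.12 ± 0.28 for Col-0, and ABCC3, a vacuolar transporter of glutathione conjugates, by 1.73 ± 0.23 for C24, 3.27 ± 0.25 for Te, 2.74 ± 0.24 for CT101 and 2.29 ± 0.24 for Col-0 (adjusted p at most 5.63e-06 for both). DHAR2, a dehydroascorbate reductase, rose by 1.23 ± 0.31 for C24, 1.64 ± 0.30 for Te, 1.81 ± 0.30 for CT101 and 1.49 ± 0.30 for Col-0 (adjusted p at most 0.00272).

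The list held 7 genes that were lower under ozone in 2 or more lines. How many of all genes were lower in 2 or more lines was not counted. In each line, as given above, the list's share called lower was not above that of all genes. GR2, the glutathione reductase of plastids and mitochondria, stood at 163, 167 and 125 CPM in C24, 199, 208 and 184 in Te, 163, 159 and 143 in CT101, and 191, 214 and 183 in Col-0 under ozone. Values of GR2 without ozone were 251, 201 and 207 CPM in C24, 331, 279 and 322 in Te, 326, 267 and 269 in CT101, and 257, 271 and 269 in Col-0. The GR2 groups did not overlap in any line, and the called changes were -0.53 ± 0.12 for C24, -0.66 ± 0.12 for Te, -0.89 ± 0.12 for CT101 and -0.44 ± 0.12 for Col-0 on the log2 scale (adjusted p at most 0.00478). GSTT1, a peroxisomal theta transferase, stood at 47.4, 56.6 and 48.6 CPM in C24, 53.0, 57.1 and 54.5 in Te, 41.7, 43.8 and 41.4 in CT101, and 41.2, 51.0 and 42.3 in Col-0 under ozone. Values of GSTT1 without ozone were 63.7, 61.4 and 65.5 CPM in C24, 64.5, 69.8 and 65.0 in Te, 70.1, 64.3 and 66.4 in CT101, and 71.8, 62.0 and 59.1 in Col-0. The GSTT1 groups did not overlap in any line, and the called changes were -0.32 ± 0.10 for C24, -0.28 ± 0.10 for Te, -0.66 ± 0.10 for CT101 and -0.52 ± 0.10 for Col-0 on the log2 scale (adjusted p at most 0.0181). The C24 call was lost without C24 ozone replicates 1 and 3 and in a fit of the compared groups alone (-0.32 to -0.27, adjusted p = 0.0651 to 0.0727), and the Te call was lost without Te control replicate 2 or Te ozone replicate 1 (-0.25 to -0.24, adjusted p = 0.0782 to 0.0807). DHAR1, a dehydroascorbate reductase outside plastids, stood at 132, 138 and 109 CPM in C24, 209.9, 262 and 201 in Te, 143, 203 and 180.1 in CT101, and 146, 208 and 171 in Col-0 under ozone. Values of DHAR1 without ozone were 238, 238 and 145 CPM in C24, 339, 284 and 313 in Te, 328, 323 and 331 in CT101, and 190.0, 207 and 206 in Col-0. The DHAR1 groups overlapped in Col-0, and the called changes were -0.72 ± 0.17 for C24, -0.48 ± 0.17 for Te and -0.90 ± 0.18 for CT101 on the log2 scale (adjusted p at most 0.0221). The Te call was lost without Te control replicates 1 and 3 or Te ozone replicates 1 and 3 (-0.48 to -0.40, adjusted p = 0.0508 to 0.0906).

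DHAR3, the plastid dehydroascorbate reductase, stood at 166, 157 and 163 CPM in C24, 195, 201 and 207 in Te, 157, 164 and 156 in CT101, and 153, 183 and 168 in Col-0 under ozone. Values of DHAR3 without ozone were 201, 171 and 188 CPM in C24, 240.4, 239 and 237 in Te, 215, 218 and 215 in CT101, and 182, 193 and 187 in Col-0. The DHAR3 groups overlapped in Col-0, and the called changes were -0.25 ± 0.09 for Te and -0.44 ± 0.09 for CT101 on the log2 scale (adjusted p at most 0.0149). The Te call was lost without Te ozone replicate 1 and in a fit of the compared groups alone (-0.23 to -0.22, adjusted p = 0.0645 to 0.0786). ABCC1, a vacuolar transporter of conjugates, stood at 132, 138 and 129 CPM in C24, 88.4, 99.7 and 83.6 in Te, 84.3, 111 and 71.5 in CT101, and 120.3, 126 and 108 in Col-0 under ozone. Values of ABCC1 without ozone were 132, 140.4 and 133 CPM in C24, 131, 124 and 120.4 in Te, 117, 120.03 and 115 in CT101, and 159, 171 and 149 in Col-0. The ABCC1 groups overlapped in C24, and the called changes were -0.47 ± 0.12 for Te, -0.40 ± 0.12 for CT101 and -0.43 ± 0.12 for Col-0 on the log2 scale (adjusted p at most 0.00631). The CT101 call was lost without CT101 ozone replicate 3 and in a fit of the compared groups alone (-0.40 to -0.26, adjusted p = 0.0569 to 0.0627).

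GSTL2, a plastid lambda transferase, stood at 30.5, 29.7 and 23.7 CPM in C24, 44.7, 54.1 and 52.6 in Te, 26.7, 27.4 and 30.6 in CT101, and 64.7, 70.0 and 59.1 in Col-0 under ozone. Values of GSTL2 without ozone were 35.5, 26.7 and 33.3 CPM in C24, 63.6, 63.1 and 61.9 in Te, 35.05, 35.2 and 35.6 in CT101, and 72.3, 74.3 and 69.7 in Col-0. The GSTL2 groups overlapped in C24 and Col-0, and the called changes were -0.32 ± 0.11 for Te and -0.32 ± 0.11 for CT101 on the log2 scale (adjusted p at most 0.0182). The Te call was lost without Te control replicate 1 or Te ozone replicate 1 (-0.30 to -0.23, adjusted p = 0.0552 to 0.122), and the CT101 call was lost without CT101 ozone replicates 1 and 2 (-0.30 to -0.29, adjusted p = 0.0521 to 0.0622). GSTL3, a lambda transferase, stood at 136, 130.4 and 117 CPM in C24, 152, 140.4 and 134 in Te, 131, 103 and 124 in CT101, and 130.1, 147 and 133 in Col-0 under ozone. Values of GSTL3 without ozone were 182, 146 and 143 CPM in C24, 220.2, 175 and 182 in Te, 216, 154 and 186 in CT101, and 212, 176 and 163 in Col-0. The GSTL3 groups did not overlap in any line, and the called changes were -0.44 ± 0.14 for Te, -0.63 ± 0.14 for CT101 and -0.42 ± 0.14 for Col-0 on the log2 scale (adjusted p at most 0.0143). The Te call was lost without Te control replicate 1 (-0.32, adjusted p = 0.0906), and the Col-0 call was lost without Col-0 control replicate 1 or Col-0 ozone replicates 1 and 3 (-0.40 to -0.30, adjusted p = 0.0563 to 0.116).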

How the data were processed

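RNA from 24 rosette libraries had been prepared with a TruSeq kit, per the labels' protocols. The deposited values are raw counts per locus, 1 table per library; the submitters' processing notes name FastQC, Bowtie2, SAMtools and HTSeq and the TAIR10 build, and the strand setting is not given in the sources used here. Totals were 13633768 to 25789925 counts, and 279 organelle loci held none. Groups were set from the labels. Counts were scaled by TMM and tested with edgeR 4.0.16 (R 4.3.3, limma 3.58.1), robust quasi-likelihood, 1 mean per group over all 24 libraries, after filterByExpr (minimum count 10, minimum total 15), which left 20554 genes, with Benjamini-Hochberg adjustment over all of them. The script was tested on simulated counts. CPM are TMM-scaled, and levels per kb divide by exon length. Ratios with 1 to 3 counts in a group carry exact 95% intervals of the summed counts, which cover counting error only, as do all depth limits. Each result was also computed with each library left out, with RLE factors, with library totals as the only scaling, with all genes kept, with the replicate number as a block, with DESeq2 1.42.0, and, where counts sufficed, with the compared groups fitted alone. A run without the 4 second ozone libraries was chosen after seeing the data. Same-numbered libraries were checked for shared deviations from their group means: the lowest correlation was 0.103 in C24 and 0.162 in CT101 for ozone against control, and 0.0404 in Te and 0.049 in Col-0. Sequences are from RefSeq's TAIR10.1, in which 31912 nuclear loci of the tables had the same chromosome and strand. Members, gene lists and tests were chosen with earlier results of these data known. Values in every library are given for the 3 called members with the largest absolute fold change in each ozone comparison, the 2 with the largest difference in each control or response comparison, those lower in 2 or more lines, the 3 highest per kb, and GSTU24, GSTF6, GSTF7, GSTF8 and GSTF2. From the pathway list they are given for the 3 with the largest mean change and those lower in 2 or more lines.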

Additional observations from a re-analysis of the deposited data

Results flagged for a closer look

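Results are listed here because the ozone response of a line differed from that of C24 by a test of the difference itself (edgeR quasi-likelihood interaction, Benjamini-Hochberg adjusted p under 0.05). Values are differences of log2 fold changes ± SE, and all comparisons share the C24 libraries. No cause was tested. Without ozone, C24 had higher means than Te for GSTF6 (214 against 35.4 CPM), GSTF7 (102 against 9.76) and GSTU9 (2.58 against 0.198). Under ozone these means were 4055 CPM in C24 against 5120 in Te, 2434 against 2357, and 44.5 against 23.1. The C24 control mean was below that of Te for GSTU14 (1.29 against 2.87 CPM), GSTF10 (131 against 138) and GSTU6 (0.252 against 0.270). Where several replicates are named, each was left out in turn. In Te minus C24, differences kept in every alternative were 4.33 ± 1.00 (adjusted p = 0.00899) for GSTU4, 3.30 ± 0.65 (adjusted p = 0.00303) for GSTF2, 3.20 ± 0.62 (adjusted p = 0.00263) for GSTF3 and 1.57 ± 0.25 (adjusted p = 0.000463) for GSTF10. GSTF6 had a Te minus C24 difference of 2.93 ± 0.73 (adjusted p = 0.0152), and the call was lost without the 4 second ozone libraries (2.70, adjusted p = 0.0668). GSTF7 had a Te minus C24 difference of 3.34 ± 0.88 (adjusted p = 0.0207), and the call was lost without C24 ozone replicate 2 or Te control replicates 1 and 3 and without the 4 second ozone libraries (3.01 to 3.28, adjusted p = 0.0527 to 0.0832). GSTU14 had a Te minus C24 difference of 1.23 ± 0.33 (adjusted p = 0.0203), and the call was lost without C24 control replicates 1 and 3 or Te control replicate 1 (1.09 to 1.16, adjusted p = 0.0524 to 0.0697). GSTU24 had a Te minus C24 difference of 4.03 ± 1.19 (adjusted p = 0.0371), and the call was lost without C24 control replicate 1, Te control replicates 1, 2 and 3 or Te ozone replicates 1 and 3, without a low-count filter and in a fit of the compared groups alone (2.62 to 4.35, adjusted p = 0.0549 to 0.369). GSTU13 had a Te minus C24 difference of 0.74 ± 0.22 (adjusted p = 0.0347), and the call was lost without C24 control replicates 1 and 3, C24 ozone replicate 2, Te control replicates 1 and 3 or Te ozone replicates 2 and 3, without a low-count filter, in a fit of the compared groups alone and without the 4 second ozone libraries (0.43 to 0.76, adjusted p = 0.0547 to 0.143). GSTU9 had a Te minus C24 difference of 2.69 ± 0.83 (adjusted p = 0.0459), and the call was lost without C24 control replicates 1, 2 and 3, C24 ozone replicates 1 and 2, Te control replicates 2 and 3 or Te ozone replicates 1 and 3, with RLE factors, without a low-count filter and without the 4 second ozone libraries (2.13 to 2.82, adjusted p = 0.0502 to 0.141). GSTU6 had a Te minus C24 difference of 2.53 ± 0.80 (adjusted p = 0.0495), and the call was lost without C24 control replicates 1 and 2, C24 ozone replicates 2 and 3, Te control replicates 1, 2 and 3 or Te ozone replicates 1, 2 and 3, with RLE factors, with library totals alone, without a low-count filter, in DESeq2 and without the 4 second ozone libraries (2.04 to 2.66, adjusted p = 0.0515 to 0.172).

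In CT101 minus C24, differences kept in every alternative were 2.53 ± 0.61 (adjusted p = 0.0152) for GSTF3 and 1.27 ± 0.25 (adjusted p = 0.00422) for GSTF10. GSTU6 differed by 3.86 ± 0.85 (adjusted p = 0.00963) there, kept in the alternatives that tested it, since its counts were too low for the fit of the compared groups alone. For GSTF2 the CT101 minus C24 difference was 2.49 ± 0.64 (adjusted p = 0.0221), and the call was lost without C24 control replicate 3, C24 ozone replicate 2 or CT101 control replicate 1 and without the 4 second ozone libraries (2.16 to 2.29, adjusted p = 0.0535 to 0.0697). For GSTF6 the CT101 minus C24 difference was 2.53 ± 0.73 (adjusted p = 0.0351), and the call was lost without C24 control replicates 2 and 3, C24 ozone replicate 2, CT101 control replicate 1 or CT101 ozone replicates 1 and 3, without a low-count filter, in a fit of the compared groups alone and without the 4 second ozone libraries (2.096 to 2.53, adjusted p = 0.0604 to 0.105). For GSTU14 the CT101 minus C24 difference was 1.29 ± 0.33 (adjusted p = 0.0191), and the call was lost without C24 control replicate 1 or CT101 ozone replicate 3 and in a fit of the compared groups alone (1.14 to 1.26, adjusted p = 0.054 to 0.0588). For GSTU13 the CT101 minus C24 difference was 0.71 ± 0.22 (adjusted p = 0.042), and the call was lost without C24 control replicates 1, 2 and 3, C24 ozone replicate 2, CT101 control replicates 1, 2 and 3 or CT101 ozone replicates 1 and 3, without a low-count filter and in a fit of the compared groups alone (0.52 to 0.78, adjusted p = 0.0568 to 0.131). In Col-0 minus C24, GSTF10 differed by 1.42 ± 0.25 (adjusted p = 0.00221), in every alternative.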

How the results depend on the processing

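Of the 123 ozone calls among the members, 112 kept their direction and call in every alternative, as did 36 of 62 control differences and 8 of 19 response differences. The fit of the compared groups alone had too few counts to test 5, 5 and 2 of these, of which 4 ozone calls (GSTU25 in C24, Te and Col-0, GSTU6 in CT101), no control difference and 1 response difference (GSTU6 in CT101 minus C24) are among those kept. Ozone responses not called numbered 20, leaving out GSTU14 in Col-0 for its low counts. Of these 20, the replicate block called 4 (GSTU16 and GSTF12 in C24, GSTF9 in Te, GSTF4 in CT101) and the run without the 4 second ozone libraries 5. The count of members lower under ozone in C24 (8) was 5 to 9 when single libraries were left out. Control differences called were 3 to 10 for CT101 minus C24 (8), 9 to 18 for Col-0 minus C24 (18) and 4 to 10 for Te minus Col-0 (9) with single libraries left out, and 1 to 4 for CT101 minus Te (1), where a replicate block called 2 and DESeq2 called 4. Response differences called for Te minus C24 (11) were 7 without a filter on low counts, 6 without the 4 second ozone libraries and 6 to 10 with single libraries left out. For CT101 minus C24 (7) they were 3 in a fit of the compared groups alone and 4 to 9 with single libraries left out, for Col-0 minus C24 (1) they were 1 to 6, and for CT101 minus Col-0 (0) the replicate block called 1. In the glutathione list, genes lower in C24 (3) numbered 7 with library totals alone, 5 with the replicate block and 2 to 5 with single libraries left out. In Te (8) they numbered 4 to 8 with single libraries left out, and in Col-0 (4) 9 with library totals alone and 7 without the 4 second ozone libraries. Reversals occurred only in values that passed no test. GSTF4 in Te was -0.0864 with library totals alone, -0.0256 without the 4 second ozone libraries and -0.0331 to 0.17 with single libraries left out. GSTU23 in C24 was -0.33 to 0.0451, GSTU16 in Col-0 -0.36 to 0.0303 and GSTU17 in Col-0 -0.43 to 0.0223 with single libraries left out. Deviations from group means correlated above 0.1 between all same-numbered libraries for the ozone comparisons of C24 and CT101 and for the control comparisons apart from CT101 minus Col-0, and the block moved no other count of member calls by over 1.5 times. The causes were not tested. Members with under 4 counts in a group are limited by depth.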

Other observations

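Of the 4 genes of glutathione supply and reduction, 2 had a larger ozone response in Te than in C24, 2 in CT101 and 3 in Col-0, and none a smaller one (edgeR, adjusted p under 0.05). Among all genes, 7.77%, 7.09% and 2.86% were called higher in Te, CT101 and Col-0 minus C24, and 1.81%, 2.61% and 0.506% lower. Of all genes called there, 81.1%, 73.1% and 85% were higher, so this direction was not particular to these genes. GSH2 and GR1, called in all 3 comparisons, were chosen after their values were seen. GSH2, glutathione synthetase, the enzyme of the final step of glutathione synthesis, stood at 79.1, 61.1 and 71.6 CPM in C24, 417, 420.0 and 422 in Te, 380.0, 304 and 413 in CT101, and 626, 352 and 458 in Col-0 under ozone. Without ozone its values were 46.9, 43.1 and 60.1 CPM in C24, 75.3, 70.0 and 75.3 in Te, 87.0, 86.3 and 91.5 in CT101, and 63.5, 54.9 and 64.2 in Col-0. No groups overlapped, and all C24 ozone values lay below those of the other lines. The GSH2 log2 fold changes were 0.50 ± 0.17 for C24, 2.51 ± 0.17 for Te, 2.05 ± 0.17 for CT101 and 2.97 ± 0.18 for Col-0 (edgeR, adjusted p at most 0.0188), and the C24 call was lost without C24 control replicates 1 and 2 or C24 ozone replicate 1 and with library totals alone (0.38 to 0.47, adjusted p = 0.0544 to 0.0812). The response differed from that of C24 by 2.02 ± 0.24 (adjusted p = 3.54e-05) in Te, 1.55 ± 0.24 (adjusted p = 0.000754) in CT101 and 2.48 ± 0.24 (adjusted p = 6.26e-06) in Col-0, and these calls were kept in each alternative tried. GR1, the glutathione reductase of cytosol and peroxisomes, stood at 185, 155 and 174 CPM in C24, 404, 398 and 376 in Te, 368, 318 and 361 in CT101, and 426, 318 and 364 in Col-0 under ozone. Without ozone GR1 stood at 143, 148 and 125 CPM in C24, 158, 167 and 156 in Te, 156, 169.8 and 153 in CT101, and 123, 191 and 139 in Col-0. Its C24 ozone values were also below those of the other lines. The GR1 log2 fold changes were 0.30 ± 0.14 for C24, 1.30 ± 0.14 for Te, 1.13 ± 0.14 for CT101 and 1.29 ± 0.14 for Col-0, not called in C24 (adjusted p = 0.0745, called in 1 of 13 alternatives), with response differences of 0.99 ± 0.19 (adjusted p = 0.00265) in Te minus C24, 0.83 ± 0.19 (adjusted p = 0.0131) in CT101 minus C24 and 0.99 ± 0.19 (adjusted p = 0.00625) in Col-0 minus C24. The GR1 call in Col-0 minus C24 was lost in a fit of the compared groups alone (0.99, adjusted p = 0.0574). GSH1, glutamate-cysteine ligase, the enzyme of the first step of glutathione synthesis, had response differences of 0.40 ± 0.13 (adjusted p = 0.0542) in Te minus C24 and 0.31 ± 0.13 (adjusted p = 0.122) in CT101 minus C24, neither called, and of 0.61 ± 0.13 (adjusted p = 0.00957) in Col-0 minus C24, a call lost in a fit of the compared groups alone (0.61, adjusted p = 0.0601). The GSH1 differences in Te and CT101 were called with a replicate block (adjusted p = 0.0095 and 0.0314) and in DESeq2 (adjusted p = 0.00789 and 0.0283), and that in Te also with library totals alone (adjusted p = 0.0471). GR2 had response differences of -0.13 ± 0.18 (adjusted p = 0.741) in Te minus C24, -0.36 ± 0.18 (adjusted p = 0.192) in CT101 minus C24 and 0.09 ± 0.18 (adjusted p = 0.915) in Col-0 minus C24, called in no alternative.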
